A study of Mus musculus with 2 samples.

Results

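Upstream peaks were DNase-seq peaks 1 to 10 kb in front of a protein-coding gene: sites of open chromatin that lay in no annotated gene body, kept at least 1 kb from every transcription start site (TSS) of a protein-coding gene in GENCODE M21, and whose middle base lay 1 to 10 kb upstream, by strand, of the nearest such TSS. This rule uses positions and no measured value. It chose 3474 of 93545 peaks in replicate 1 (3.71%) and 3048 of 79144 peaks in replicate 2 (3.85%), a mean of 3261 ± 301 (SD, n = 2). DNase-seq was run on 2 libraries from mouse hippocampus (the labels write layer of hippocampus), taken from the strain B6CASTF1/J at 25 days and labelled male. B6CASTF1/J is a cross of a laboratory strain with the wild-derived CAST strain. Both libraries belong to 1 group, with no control, treatment or other genotype. The entries give each library its own biosample but 1 donor for both, but their sex-linked promoters, given next, showed opposite patterns, which a single animal would not give. How many animals stand behind each library is not stated, and what makes up the spread between them was not tested. An exact test over 2 libraries cannot go below p = 0.5, so no difference was tested, and an order is stated only where both libraries gave it.

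Some checks bear on the labels. The marker promoters of neurons had a peak in both libraries for 4 of 4 genes, those of dentate granule cells and of the CA fields for 4 of 4 each, those of excitatory neurons for 4 of 5 and those of inhibitory neurons for 2 of 5. For microglia it was 0 of 4 genes, for endothelium 1 of 3, for astrocytes 3 of 5 and for oligodendrocytes 2 of 6, while the promoters of Alb and Myh6, markers of liver and heart, had none and that of the globin gene Hbb-bs had low peaks (0.311 and 0.348). Promoter peaks were common, however. Of 15814 protein-coding genes with at least 500 bp of sequence that met the rule, 9164 had one in both libraries. Full counts in groups this small thus say little about the tissue. Replicate 1 had promoter peaks at Ddx3y, Kdm5d, Uty and Eif2s3y on chromosome Y and none at Xist. The other library had 3 peaks at the Xist promoter (highest value 1.01) and none at these Y-linked genes, which goes against its label. Statements on which library is higher therefore name it as the library labelled male replicate 2. No upstream peak lay on chromosome Y in either library.

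DNase I cuts DNA where nucleosomes have been displaced, so a peak of cuts marks a site that proteins can reach, and a footprint, a short stretch with few cuts inside a peak, marks bases that a bound protein may shield. The sequence in front of a gene can hold enhancers, which raise transcription when bound by factors of a cell type or of a signal, as well as boundary sites bound by CTCF, a zinc-finger protein that holds chromatin loops in place. Upstream sequence can also hold other short genes, among them transfer RNA (tRNA) genes, which are transcribed by RNA polymerase III. The nearest gene is used here as a name for a peak's place and does not show which gene the site acts on.

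The windows below show what such sites look like in sequence, each 200 bases around the middle of a peak on the plus strand of mm10, read from the reference genome GRCm38.p6, which may differ from the CAST allele of these mice. Each is the strongest peak that both libraries held in front of its gene. The first set holds the 3 strongest of all. In Ppp1r1b capitals mark a match to the CTCF consensus, and in the next 2 windows they mark the bases of an annotated tRNA gene, n-TLcaa3 (bases 1 to 70 of the window) and n-TLcag4 (bases 1 to 26), both on the minus strand. None of the 3 had another copy in the genome at 90% identity or more over 80% of its length.
Ppp1r1b, chr11:98342681-98342880: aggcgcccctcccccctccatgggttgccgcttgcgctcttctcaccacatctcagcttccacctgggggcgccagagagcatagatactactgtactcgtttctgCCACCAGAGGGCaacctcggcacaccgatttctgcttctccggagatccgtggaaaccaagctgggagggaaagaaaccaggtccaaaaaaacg
Zfp692, chr11:58302511-58302710: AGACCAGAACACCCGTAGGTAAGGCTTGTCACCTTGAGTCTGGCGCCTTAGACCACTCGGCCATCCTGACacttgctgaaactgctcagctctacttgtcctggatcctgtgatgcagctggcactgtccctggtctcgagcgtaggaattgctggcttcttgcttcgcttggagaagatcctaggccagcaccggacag
Pllp, chr8:94704061-94704260: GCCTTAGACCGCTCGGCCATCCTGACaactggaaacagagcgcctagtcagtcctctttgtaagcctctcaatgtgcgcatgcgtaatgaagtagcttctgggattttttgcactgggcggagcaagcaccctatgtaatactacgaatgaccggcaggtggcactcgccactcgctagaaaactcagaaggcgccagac

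The next set comes from genes that synaptic activity induces, with matches to the 24 consensus motifs named further on in capitals. Arc encodes a protein of the postsynapse, Fos a subunit of the factor AP-1 and Nr4a1 an orphan nuclear receptor. The matches are E-boxes in Arc, GC boxes and a forkhead motif in Fos, and a GC box, a POU octamer and a forkhead motif in Nr4a1, and none of them lay in a footprint in either library.
Arc, chr15:74678983-74679182: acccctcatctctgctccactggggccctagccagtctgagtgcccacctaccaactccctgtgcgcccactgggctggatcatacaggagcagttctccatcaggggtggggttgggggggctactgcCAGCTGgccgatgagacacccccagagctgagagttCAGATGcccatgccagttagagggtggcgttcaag
Fos, chr12:85472135-85472334: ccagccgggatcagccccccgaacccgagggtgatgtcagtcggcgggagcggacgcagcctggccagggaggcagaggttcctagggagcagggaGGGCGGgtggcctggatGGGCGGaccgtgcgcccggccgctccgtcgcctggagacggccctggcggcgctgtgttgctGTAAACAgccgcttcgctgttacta
Nr4a1, chr15:101246361-101246560: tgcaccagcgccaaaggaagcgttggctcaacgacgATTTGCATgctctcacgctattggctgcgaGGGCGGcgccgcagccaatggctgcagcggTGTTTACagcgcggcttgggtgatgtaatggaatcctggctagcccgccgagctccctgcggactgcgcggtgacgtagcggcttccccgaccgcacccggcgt

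The last set stands for cell types: Slc17a7 (the vesicular glutamate transporter of excitatory neurons), Neurod2 (a bHLH factor of the same neurons), Sst (somatostatin, of interneurons), Slc1a2 (the glutamate transporter of astrocytes), Mog (a myelin protein of oligodendrocytes) and Cx3cr1 (the fractalkine receptor of microglia). Slc17a7, Mog and Cx3cr1 were chosen after their values were seen. Neurod2, Sst and Slc1a2 have no capitals, since none of the 24 motifs matched there.
Slc17a7, chr7:45162221-45162420: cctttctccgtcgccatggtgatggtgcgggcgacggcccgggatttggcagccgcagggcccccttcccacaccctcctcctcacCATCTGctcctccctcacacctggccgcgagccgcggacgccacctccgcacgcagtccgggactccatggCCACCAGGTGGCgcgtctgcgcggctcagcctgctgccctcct
Neurod2, chr11:98338594-98338793: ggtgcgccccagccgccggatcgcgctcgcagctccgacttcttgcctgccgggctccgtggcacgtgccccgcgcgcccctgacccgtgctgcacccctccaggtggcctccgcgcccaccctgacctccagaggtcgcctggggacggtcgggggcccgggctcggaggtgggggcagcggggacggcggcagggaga
Sst, chr16:23898961-23899160: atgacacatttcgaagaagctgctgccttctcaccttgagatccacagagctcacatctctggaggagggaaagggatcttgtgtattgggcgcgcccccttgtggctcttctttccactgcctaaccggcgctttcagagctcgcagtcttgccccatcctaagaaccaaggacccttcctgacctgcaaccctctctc
Slc1a2, chr2:102649075-102649274: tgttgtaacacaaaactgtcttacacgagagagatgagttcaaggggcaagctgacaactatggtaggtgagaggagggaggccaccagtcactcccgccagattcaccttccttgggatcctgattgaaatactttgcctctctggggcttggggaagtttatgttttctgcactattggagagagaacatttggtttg
Mog, chr17:37028761-37028960: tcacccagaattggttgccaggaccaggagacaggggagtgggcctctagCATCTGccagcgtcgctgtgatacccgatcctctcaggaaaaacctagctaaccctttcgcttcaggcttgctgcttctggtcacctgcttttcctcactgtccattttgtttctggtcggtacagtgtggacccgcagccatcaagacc
Cx3cr1, chr9:120073261-120073460: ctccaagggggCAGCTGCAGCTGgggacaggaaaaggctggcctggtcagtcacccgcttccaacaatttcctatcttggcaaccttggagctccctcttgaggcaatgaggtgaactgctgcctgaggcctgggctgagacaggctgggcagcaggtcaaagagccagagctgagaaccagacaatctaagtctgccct

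Upstream peaks were most dense close to the gene and thinned out with distance. Sequence that met the rule, called eligible below, came to 109.5 Mb, or 4.02% of the genome, and held 31.7 upstream peaks per Mb in replicate 1 and 27.8 in replicate 2. Over the whole genome all peaks came to 34.3 and 29.0 per Mb. Of all peaks, 31.3% and 34.2% touched a window of 1 kb around a TSS, which the rule leaves out. These densities are therefore not like for like, and do not show that upstream sequence is poorer in peaks than the rest. From 1 to 2 kb before the TSS the density was 46.3 and 37.4 per Mb (mean 41.9 ± 6.29, SD, n = 2). From 9 to 10 kb it was 26 and 21.8 per Mb, which makes the near bin 1.78 times and 1.72 times as dense. The density fell up to 6 kb, and beyond that the bins lay between 24.9 and 26.9 per Mb in replicate 1 and between 21.7 and 24.6 in replicate 2. The median distance of an upstream peak was 4219 bp and 4218 bp.

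**Figure D1:**
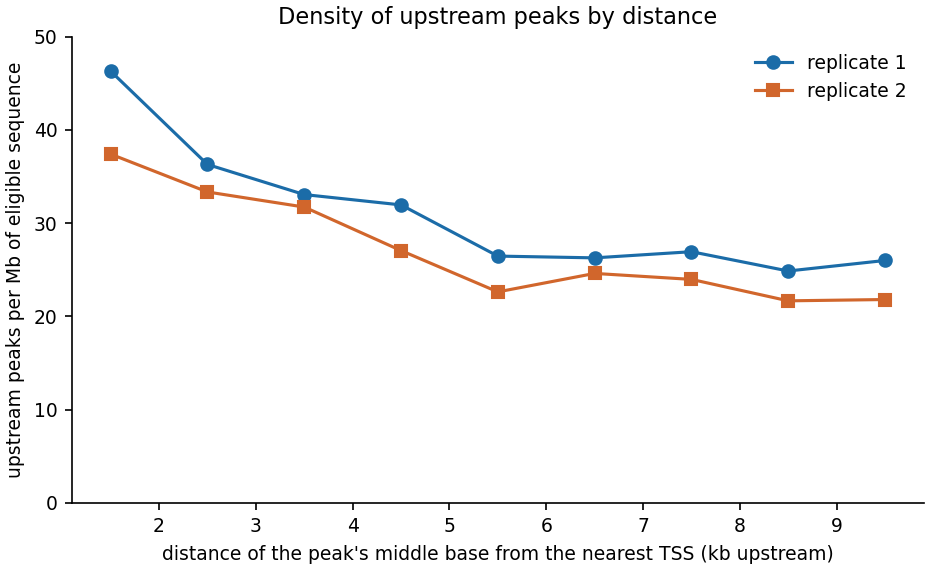
Upstream peaks per Mb of eligible sequence (y axis) in bins of 1 kb by distance of the middle base from the nearest TSS (x axis, kb), with a line for each library. Both lines fall from 46.3 and 37.4 per Mb at 1 to 2 kb to 26 and 21.8 per Mb at 9 to 10 kb.

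The peak value is the signal column of the authors' peak list, whose scale no source gives. Its median over upstream peaks was 0.650 in replicate 1 and 0.696 in replicate 2 (mean 0.673 ± 0.0326, SD, n = 2). Over all peaks it was 0.657 and 0.651. Peaks touching a TSS window, called promoter peaks, reached 1.21 and 1.07, and upstream peaks stayed under them in both libraries. Peaks in gene bodies had medians of 0.572 and 0.567 and intergenic peaks more than 10 kb from any TSS 0.502 and 0.496, both lower than upstream peaks in each library. Upstream peaks were 198 bp and 180 bp wide at the median, against 340 bp and 280 bp for promoter peaks. CpG-island-like windows (at least 50% G and C and an observed over expected CpG ratio of at least 0.6) made up 11.6% and 11.98% of upstream peaks, 58.8% and 62.1% of promoter peaks and 5.53% and 5.74% of far intergenic peaks.

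**Figure D2:**
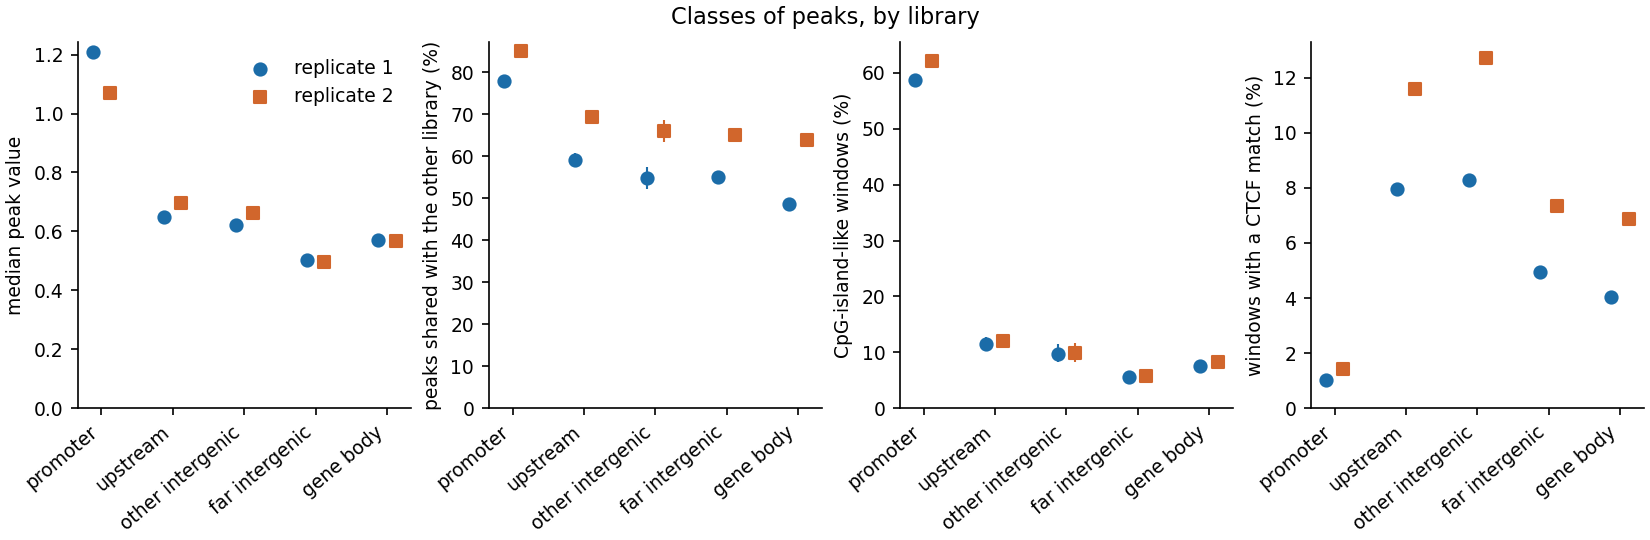
Median peak value, share of peaks shared with the other library, share of CpG-island-like windows and share of windows with a CTCF match (y axes) for 5 classes of peaks (x axes), with circles for replicate 1 and squares for replicate 2; bars in the middle panels are exact 95% intervals. Upstream peaks lie under promoter peaks in the first 3 panels and above them in the fourth, where other intergenic peaks, those within 10 kb on the downstream side, lie as high.

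Median values were somewhat higher just outside either edge of the rule than just inside it, in both libraries. Within the 500 bp inside the near edge, at 1 kb, peaks had median values of 0.608 and 0.651, and within the 500 bp outside it 0.721 and 0.690. At the far edge, 10 kb, the medians were 0.632 and 0.651 in the 500 bp inside and 0.671 and 0.696 in the 500 bp outside.

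Of the upstream peaks of replicate 1, 2052 (59.1%, exact 95% interval 57.4 to 60.7) overlapped a peak of the other library by at least 1 bp, against 59.8% of all its peaks. In replicate 2 it was 2115 (69.4%, interval 67.7 to 71.0), against 71.7% of all. These shares were close to those of all peaks, above those of gene body peaks (48.5% and 63.9%) and below those of promoter peaks (78.0% and 85.0%). The authors' shorter list, whose peaks all hold a base with an FDR of at most 0.001, covered 47.8% and 52.7% of upstream peaks, against 50.4% of all peaks in replicate 1 and 52% in replicate 2. Intervals here and below cover counting error only.

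Sharing followed the value. With the upstream peaks of a library cut into 10 equal groups by value, 8.05% of the lowest group and 99.7% of the highest were shared in replicate 1, and 14.8% and 98.4% in replicate 2. Peaks without a partner had medians of 0.410 and 0.438, and shared ones 0.926 and 0.870. The 2 libraries held 1941 pairs of upstream peaks that overlapped and were each other's partner, in front of 1591 genes. Across these pairs the values of both libraries went together (Spearman's rho 0.879, Pearson's r of log2 values 0.899, over 1941 sites that share their library and depth, as a description), and 98.2% of pairs lay within 2-fold of each other.

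**Figure D3:**
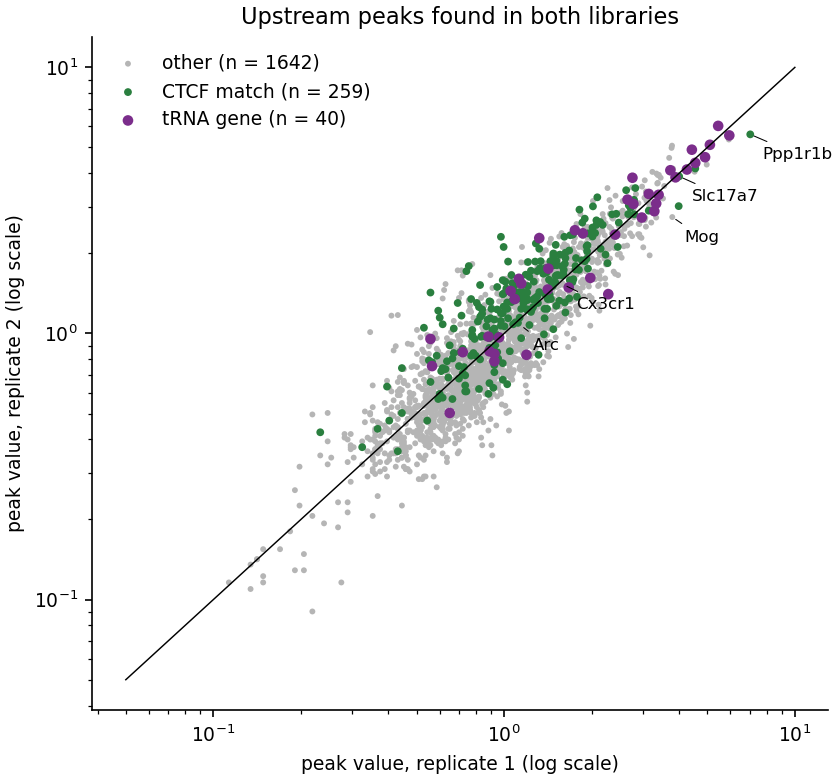
Peak value in replicate 1 (x axis) and replicate 2 (y axis), both on log scales, for the 1941 pairs of upstream peaks, with the line of equal values. Pairs over a tRNA gene (n = 40) and pairs whose window matches CTCF (n = 259) make up 17 and 15 of the 100 strongest pairs, and Ppp1r1b is the pair farthest to the right.

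CTCF sites made up a larger share of upstream peaks than of all peaks. A match to the CTCF consensus stood in the 200 bp window of 276 upstream peaks of replicate 1 (7.95%, interval 7.07 to 8.89) and 353 of replicate 2 (11.6%, interval 10.5 to 12.8). Over all peaks it was 3.52% and 5.39%, over promoter peaks 1.02% and 1.41%, and over tiles of 200 bp of eligible sequence that touched no peak 0.0823%. Intergenic peaks within 10 kb on the downstream side had shares as high, 8.29% and 12.7%, so the upstream side did not stand out from the downstream one. Far intergenic peaks had 4.95% and 7.33%, and this gap varied with the peak value. Among peaks with a value under 0.5 the share was 1.22% and 2.60% upstream and 1.37% and 1.72% far from genes, which is not the same order in both libraries. Among peaks with a value from 0.5 to 1 the share was 7.78% and 9.61% upstream and 5.16% and 7.60% far from genes. Among peaks with a value from 1 to 2 the share was 16.9% and 24.2% upstream, 15.4% and 24.3% far from genes and 12.1% and 20.2% in gene bodies. Among peaks with a value of 2 or more it was 14.6% and 20.5% upstream, and 21.3% and 26.4% far from genes, with intervals that overlap (10.2 to 20.1 and 18.1 to 24.9 in replicate 1).

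Most of these CTCF matches lay in footprints. Of 276 matches in the upstream windows of replicate 1, 245 had their middle base in a footprint (88.8%, interval 84.4 to 92.2), and of 354 in replicate 2, 313 (88.4%, interval 84.6 to 91.6). Footprints covered 8.99% and 10.4% of the bases of the same windows. Over all peaks 82.0% and 84.9% of CTCF matches lay in a footprint. The match in the Ppp1r1b window and the one at bases 158 to 169 of the Slc17a7 window, both printed above, lay in a footprint in both libraries. Upstream peaks with a CTCF match had median values of 1.09 and 1.19 and were shared at 95.3% and 82.2%, close to the 93.96% and 81.4% of all peaks with a match. They spread over 268 and 343 genes, at a median distance of 4565 and 4528 bp.

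A footprint of the same library stood in 72.0% of upstream peaks of replicate 1 and 75.2% of replicate 2, against 70.2% and 71.5% of all peaks. The mean was 1.75 and 1.69 footprints for each upstream peak. Among shared peaks the one with most footprints in replicate 1, 12 against 4 in replicate 2, lay 3300 bp in front of Kdm5b, which encodes a histone H3K4 demethylase. The next, in front of Tnrc18, held 11 in each library. Both sites were wider than the median upstream peak (198 bp and 180 bp), and these counts are not corrected for width. The Kdm5b peak spanned chr1:134556481-134557260 in replicate 1 and the shorter chr1:134556921-134557200 in replicate 2. Footprints depend on the number of cuts, which is unknown here, so a peak without one may have been too shallow to show it.

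**Figure D4:**
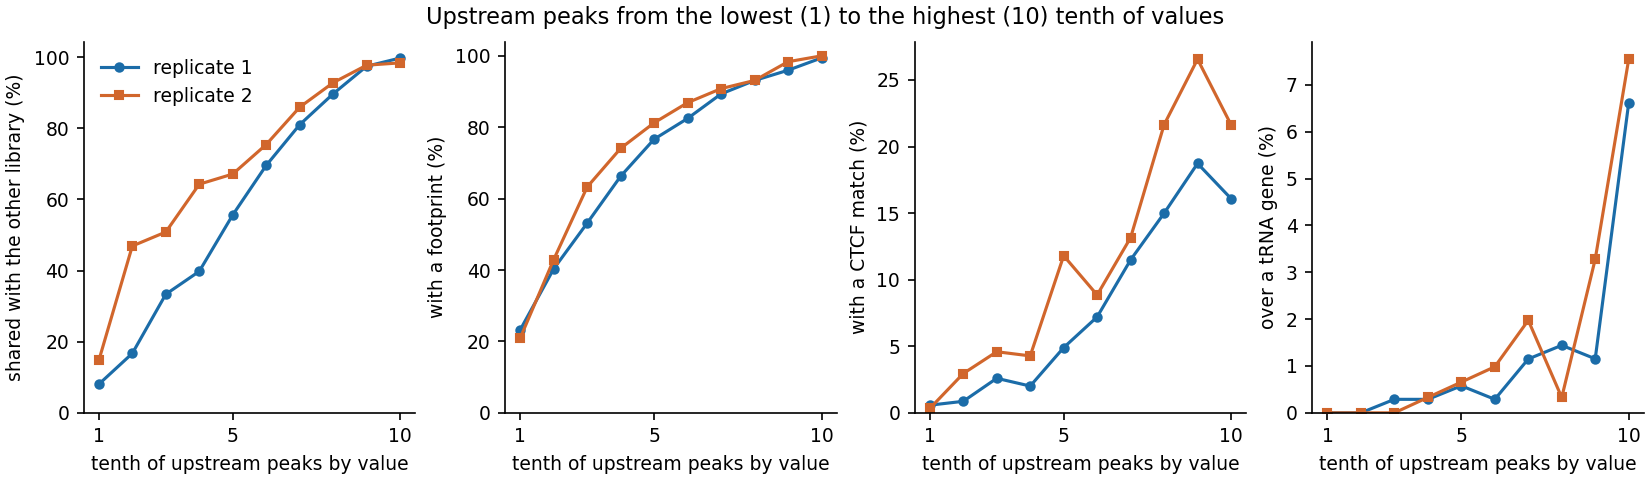
Share of upstream peaks (y axes, %) that were shared with the other library, held a footprint, matched CTCF or lay over a tRNA gene, in 10 equal groups from the lowest to the highest values (x axes), with a line for each library. Sharing rises from 8.05% and 14.8% to 99.7% and 98.4%, and tRNA genes reach 6.61% and 7.54% in the highest group.

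Many of the strongest upstream peaks lay on tRNA genes. Of the 10 shared upstream peaks with the highest mean value, 6 overlapped a tRNA gene of the RefSeq annotation, which the GENCODE gene set of the rule does not list: both peaks in front of Zfp692 (5.95 and 5.55, and 5.10 and 5.12 in replicates 1 and 2), and those in front of Pllp (5.45 and 6.03), Shf (4.91 and 4.60), Eef2k (4.42 and 4.91) and Mpzl1 (4.54 and 4.38). The tRNA genes there read leucine, glutamate, histidine and proline codons. In all, 41 upstream peaks of replicate 1 (1.18%, interval 0.848 to 1.60) and 46 of replicate 2 (1.51%, interval 1.11 to 2.01) lay over a tRNA gene, against 0.215% and 0.277% of all peaks. Their median values were 1.87 and 2.02, and 97.6% and 91.3% were shared. Intergenic peaks on the downstream side had shares as high (1.32% and 1.80%). Sequence in gene bodies was left out of both sets, so these shares are not shares of all tRNA genes.

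The other 4 of the 10 were not on tRNA genes. The first of all, at chr11:98342661-98342900, lay 5623 bp in front of Ppp1r1b, which encodes the phosphoprotein DARPP-32 of dopamine signalling, and 13012 bp from the body of Neurod2 on its other side. Its value was 7.02 in replicate 1 and 5.601 in replicate 2 (mean 6.31 ± 1.01, SD, n = 2), with 6 and 4 footprints, and RefSeq places it in the long noncoding RNA gene Gm38970. Txn2, a mitochondrial thioredoxin, had a peak at 4945 bp (5.93 and 5.36). Otud3, a deubiquitinase, had one at 8306 bp (3.78 and 5.08). The peak of Kcnn1, an SK-type potassium channel gene, was listed 2463 bp upstream (4.97 and 4.31), but the RefSeq start of the same gene lies 30 bp from its middle base.

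Other upstream peaks also lay near a RefSeq start, but how many lay at a start of their own named gene was not counted. RefSeq, on the same build, has the start of a gene of any type within 1 kb of 468 upstream peaks of replicate 1 (13.5%) and 410 of replicate 2 (13.5%). For starts of protein-coding genes alone it was 244 (7.02%) and 203 (6.66%). RefSeq gene bodies covered 786 (22.6%) and 660 (21.7%). Of these, 360 and 285 touched a protein-coding gene and 405 and 361 a long noncoding RNA gene. The 2495 and 2209 peaks with neither, 71.8% and 72.5%, had median values of 0.636 and 0.670 and were shared at 58.4% and 67.4%. The peaks near a RefSeq start had 0.774 and 0.857 and were shared at 66.7% and 80.7%.

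The other motifs are given beside all peaks and beside tiles without a peak. The 24 motifs, searched on both strands and counted where they overlapped, were AP-1 (TGANTCA), CRE (TGACGTCA), the E-box of the NEUROD and NEUROG family (CAGATG), an E-box of other bHLH factors (CAGCTG), EGR (GCGTGGGCG), GC box (GGGCGG), NRF1 (GCGCATGCG), ETS (CCGGAAGT), YY1 (AAGATGGC), REST (CAGCACCNNGGACAG), NFI (TGGCNNNNNGCCA), RFX (GTTGCCATG), NR4A and ROR (AAAGGTCA), SOX (CCATTGT), POU octamer (ATGCAAAT), homeodomain (TAATTA), forkhead (TGTTTAC), TEAD (GGAATGT), PU.1 (GAGGAAGT), GATA factors (AGATAAG) and HNF4 (CAAAGTCCA), with MEF2, the SRF CArG box and CTCF. The motif of REST, a repressor of neuronal genes in other cells, matched only 7 upstream peaks in each library (0.202% and 0.230%), against 0.0631% and 0.0695% of all peaks and 0.00658% of tiles. The SRF CArG box, found at many immediate early genes, matched 1.18% and 1.18% of upstream peaks, 0.733% and 0.770% of all peaks and 1.13% of tiles.

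The GC box, bound by SP and KLF factors, matched 11.8% and 12.2% of upstream peaks, against 17.8% and 20.6% of all peaks, 39.1% and 43.0% of promoter peaks and 1.94% of tiles. The E-box CAGCTG matched 16.2% and 16.3%, close to the 17.3% and 16.8% of all peaks and above the 7.46% of tiles. The other E-box, CAGATG, matched 18.9% and 18.4% (19.0% and 18.8% of all peaks, 15.3% of tiles). AP-1 matched 6.97% and 6.37%, against 5.56% and 5.59% of all peaks and 5.88% of tiles. Matches of these motifs fell in footprints less often than those of CTCF. The shares were 18.7% and 22.1% for the GC box, 12.6% and 13.0% for CAGCTG, and 16.7% and 17.5% for CAGATG. These lay above the share of window bases in footprints (8.99% and 10.4%), and AP-1, with 7.39% and 7.21%, lay below it. NFI matches, few in number (43 and 50), were in footprints at 48.8% and 42.0%. NRF1 matches, fewer still (17 and 15), were in footprints at 58.8% and 73.3%. TAATTA, the core of homeodomain sites, is rich in A and T and matched fewer upstream peaks (2.22% and 2.30%) than tiles (6.04%), whose median G and C content was 43%, against 53% and 52% in the windows of upstream peaks.

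Seen from the genes, an upstream peak found in both libraries was the exception. Of 15814 protein-coding genes with at least 500 bp of eligible sequence, 2251 (14.2%) had an upstream peak in replicate 1 and 2134 (13.5%) in replicate 2. An overlapping pair stood in front of 1588 of them (10.04%, interval 9.58 to 10.5), and 1332 of these had 1 pair. Where the gene's promoter had a peak in both libraries the share was 12.3% (interval 11.6 to 13.0) and the density 22.2 pairs per eligible Mb. Where it had none in either it was 6.33% (interval 5.72 to 6.97) and 10.5 per Mb.

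The 21 gene lists are given beside these values as a description, since they were chosen with results of these data known. Activity-regulated genes, which neurons transcribe within minutes to hours of synaptic input, had a pair in 13 of 27 cases (48.1%, interval 28.7 to 68.05), at 87.9 pairs per eligible Mb against 17.7 over all genes, and the promoters of all 27 had a peak in both libraries. Oligodendrocyte precursors (3 of 7), oligodendrocytes (7 of 18), inhibitory neurons (7 of 19) and microglia (6 of 18) followed by share of genes, with intervals that overlap widely. By pairs per eligible Mb, oligodendrocyte precursors had 89.1 and transcription factors of the hippocampus and forebrain 82.97, close to the activity-regulated genes. These 2 values rest on few genes. Of the 5 precursor pairs 3 lay in front of Pdgfra, and of the 12 transcription factor pairs Sox4 had 4, Id2 3 and Lef1 3. The 18 activity-regulated pairs lay in front of 13 genes. Dentate granule cell genes had a pair in 0 of 14 cases (interval 0 to 23.2%, which holds the 10.04% of all genes), and 11 of the 14 had a promoter peak in both libraries. Genes of blood (0 of 13, interval 0 to 24.7%) and of muscle and heart (0 of 8, interval 0 to 36.9%) had none either. Both intervals also hold the 10.04%. Liver genes had a pair in 1 of 10 cases. Genes of other brain regions had one in 5 of 24 (20.8%), at 53.5 pairs per eligible Mb.

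**Figure D5:**
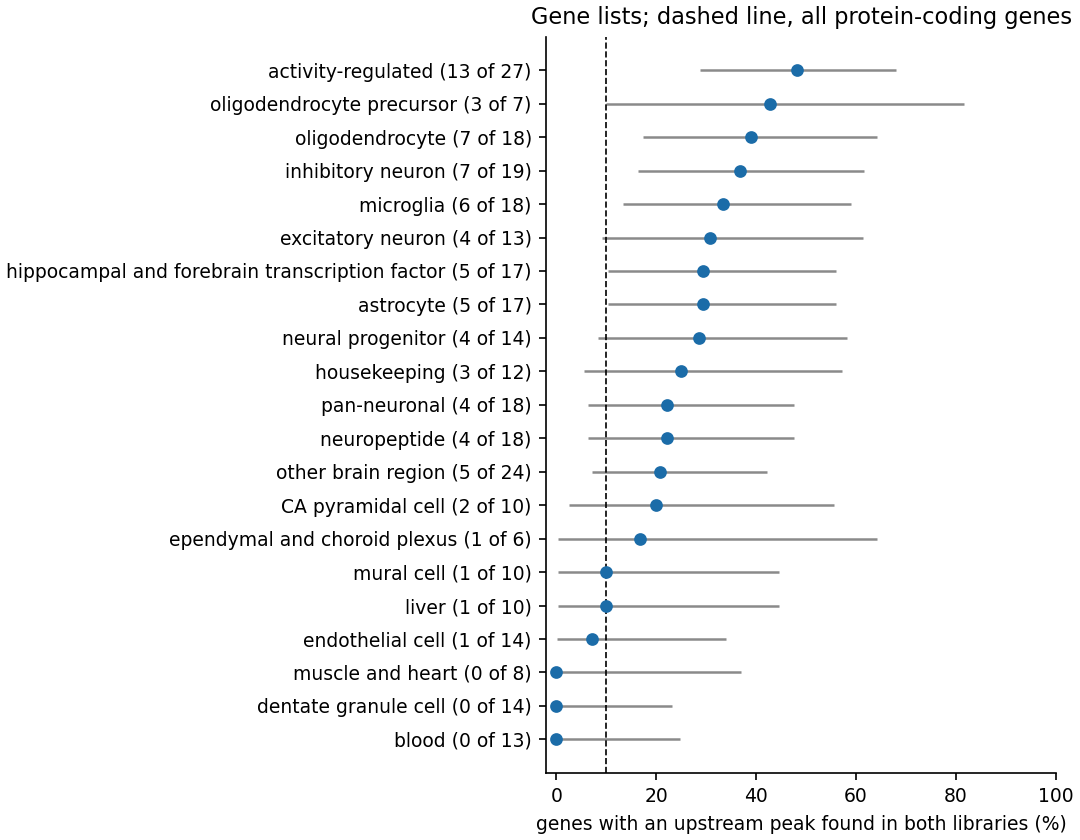
Share of a list's genes with an upstream peak found in both libraries (x axis, %), with exact 95% intervals as lines and the share over all protein-coding genes as the dashed line; the counts stand beside the names. Activity-regulated genes lie highest at 48.1%, and the interval of dentate granule cell genes, at 0%, reaches 23.2%.

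Among activity-regulated genes the strongest pairs lay close to the gene. Gadd45b, a DNA damage and demethylation factor, had one 1242 bp upstream with values of 3.05 and 2.67 and 10 and 5 footprints. Nr4a3, an orphan nuclear receptor, had 2, at 1642 bp (2.66 and 2.56) and at 2142 bp (3.01 and 2.11). Egr3, a zinc-finger factor, had 2, of which the stronger reached 2.93 and 2.31 at 2122 bp. Nr4a1 had its pair farther out, at 7808 bp, with 2.52 and 2.40. The median of the strongest pair over the 13 genes was 1.32, against 0.955 over all 1591 genes with a pair.

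The immediate early genes Arc and Fos had weaker sites. Arc, which is known to have an activity-responsive element several kilobases in front of its TSS, had a pair at 6513 bp with values of 1.14 and 1.08 (mean 1.11 ± 0.0433, SD, n = 2). Whether the peak lies on that element was not examined. Fos had a pair at 1655 bp (1.01 and 0.857) and another at 5859 bp (0.982 and 0.844). Egr1 had 3 pairs, at 4316 bp (1.32 and 0.980), 7656 bp (0.954 and 0.754) and 9546 bp (1.28 and 1.36), and Egr4 had 1 at 4782 bp (0.692 and 0.645). Fosb had an upstream peak in replicate 1 only (2.22). It overlapped a peak of the other library that did not count as an upstream peak of Fosb. Npas4 (0.683) and Nptx2 (highest 0.632) had upstream peaks in the library labelled male replicate 2 only. Junb, Egr2 and Bdnf had no upstream peak in either library, although their promoters were open in both.

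Genes of excitatory neurons had a pair in 4 of 13 cases. The strongest, in front of Slc17a7 at 1628 bp, had values of 4.00 and 3.89 (mean 3.95 ± 0.0751, SD, n = 2), higher than any peak at that gene's promoter (1.05 and 1.01). It was also among the 5 strongest pairs with a CTCF match. Neurod2, whose promoter had a peak in replicate 1 only, had a pair at 9046 bp (2.76 and 2.32), Bcl11b, a zinc-finger factor of projection neurons, at 2779 bp (1.22 and 1.30), and Camk2a, a synaptic kinase, one with a mean of 1.11. Among transcription factors of the hippocampus and forebrain, 5 of 17 genes had a pair. Sox4 had 4 pairs between 4258 and 5928 bp, with the highest at 3.46 and 3.85, and Id2, an inhibitor of bHLH factors, had 3. Prox1, Emx2 and Neurod1 had no eligible sequence under the rule. Lhx2, Tbr1 and Neurod6 had some but no upstream peak in either library.

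The 14 genes of dentate granule cells had upstream peaks in replicate 1 only, at Lct (4 peaks, highest 0.325) and Rfx3 (0.481). For CA pyramidal cells 2 of 10 genes had a pair, Iyd (2 pairs, the stronger 1.30 and 1.74) and Cacng5 (0.791 and 0.554), and neither gene had a promoter peak in either library.

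Inhibitory neuron genes had a pair in 7 of 19 cases. Sst had 3 pairs, at 8103 bp (1.46 and 1.42), 7323 bp (1.25 and 0.941) and 9425 bp (0.438 and 0.503), while its promoter had no peak in either library. Vip, another interneuron peptide, also lacked a promoter peak and had a weak pair (0.375 and 0.412). Kcnc1, a fast potassium channel of interneurons, had the strongest of the list at 3166 bp (2.37 and 2.20), and Maf, a factor of interneuron development, had one at 1837 bp (1.29 and 1.48). Gad2 had an upstream peak in replicate 1 only (0.551). Npy had one in the library labelled male replicate 2 only (0.432). Gad1 and Dlx1 had no eligible sequence.

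Several genes of oligodendrocytes and microglia had an open site upstream but none called at the promoter. Over all genes, 6023 of 15814 had no promoter peak in either library, and 6.33% of these had a pair. The list counts below are taken the other way, out of genes with a pair, so 6.33% is not their background. Such genes also stood in other lists: 2 of 2 genes with a pair for CA pyramidal cells, 2 of 7 for inhibitory neurons and 1 of 1 for ependyma and choroid plexus. For neuropeptides it was 2 of 4, again Sst and Vip. In the remaining lists no gene with a pair lacked a promoter peak, among them the 5 of astrocytes and the 3 of oligodendrocyte precursors. For oligodendrocytes 7 of 18 genes had a pair, and 3 of the 7 had no promoter peak in either library. Among them were the myelin genes Mog (5463 bp, 3.79 and 2.74) and Mobp (8866 bp, 1.38 and 1.76). Mog was higher in replicate 1 and Mobp in the library labelled male replicate 2. Mbp had both, with its pair at 4905 bp (0.933 and 0.735). Olig1, a bHLH factor of the lineage, had a pair at 3571 bp (0.841 and 0.541). Olig2 had an upstream peak in replicate 1 only, and Sox10 had no eligible sequence.

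For microglia 6 of 18 genes had a pair, and 4 of the 6 had no promoter peak: Cx3cr1 (3482 bp, 1.60 and 1.53), Trem2, a lipid receptor (9340 bp, 1.46 and 1.65), Ctss, a lysosomal protease (1.05 and 1.26), and Laptm5, a lysosomal membrane protein (mean 0.566). Csf1r had no upstream peak in either library. Tissue of many cell types was cut, so a low peak cannot tell a site open in few cells from one little open in many.

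Astrocyte genes had a pair in 5 of 17 cases, led by Gja1, the gap junction protein connexin 43, at 7999 bp (1.12 and 1.25), with Slc1a2 at 9484 bp (0.798 and 0.709). Gfap and Aqp4 had no eligible sequence. Endothelial genes had 1 of 14, the glucose transporter Slc2a1 (0.954 and 0.941), and Cldn5 had no upstream peak. Housekeeping genes had 3 of 12, among them Ppia, which encodes cyclophilin A (1.92 and 2.36), and Rplp0 of the ribosome (0.862 and 1.02). Of the 34 genes followed whatever their values, 12 had a pair and 6 had an upstream peak in 1 library only. Another 8 had eligible sequence without an upstream peak, and 8 had no eligible sequence.

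A few genes had long rows of upstream peaks. Gprin1, a regulator of neurite growth, had 11 and 10 of them in 5596 eligible bp, with 8 pairs, the highest at 2977 bp (1.84 and 1.56). Kdm6b, a histone H3K27 demethylase, had 8 and 7, with summed values of 11.2 and 9.58, the highest in both libraries among the 10 genes with most upstream peaks. Pou3f2, a POU factor of neurons, had 8 and 7. Garem2 (8 and 14 peaks) and Acap2 (12 and 8) also stand in this group, but their summed values were low, 1.42 and 1.68 for Garem2 and 1.45 and 1.02 for Acap2. A high count was thus not the same as a strong site.

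Some upstream peaks stood in rows that 1 library alone held. Dense runs, at least 5 peaks in a row of 1 library within 1 kb of each other and without a partner, took 235 upstream peaks of replicate 1 (6.77%) and 137 of replicate 2 (4.49%), or 16.5% and 14.7% of the unshared ones. Of all peaks they took 6.75% and 2.49%, so that the upstream share was close to the background in replicate 1 and above it in replicate 2. Their median values were 0.226 and 0.161, against 0.693 and 0.722 outside runs. Ackr2 had 15 such peaks in replicate 1 and 0 upstream peaks in the other library, and BC034090 had 15 in the library labelled male replicate 2 and 0 in replicate 1. What made these rows was not tested.

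The strongest peaks without a partner were of another kind. Replicate 1 led with Fbrs (3.39 at 1358 bp), Git1 (1.38), Celf5 (1.31), Egr3 (1.29) and Kif26b (1.28), and the library labelled male replicate 2 with Was on chromosome X (2.89 at 6133 bp), Eef2k (2.76), Dnase1l3 (2.57), Aurkb (2.44) and Rab3b (2.02). For 7 of these 10 the other library as well listed every base of the peak below the FDR of 0.05, with a lowest FDR of 5.48e-19 at Fbrs and 3.87e-37 at Was, so the other library had signal there without a called peak. The Eef2k peak starts at the base after the end of the replicate 1 peak over the tRNA gene in front of Eef2k, given above. Over all unshared upstream peaks 136 of 1422 (9.56%) and 161 of 933 (17.3%) held a base listed in the other library. Among unshared peaks of all classes together the shares were 12.5% and 21.7%. Promoter peaks had higher shares than upstream peaks (25.2% and 48.9%), and gene body peaks lower ones (9.25% and 15.2%). Far intergenic and other intergenic peaks did not have the same order in both libraries.

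Chromosome X was poor in upstream peaks. It held 63 and 55, or 10.4 and 9.09 per eligible Mb, against 33.5 and 29.4 per Mb on the autosomes. The whole peak list was thin there too: 2.41% and 2.59% of all peaks lay on chromosome X, against 1.81% and 1.80% of upstream peaks. Their median values were 0.389 and 0.458, against 0.657 and 0.703, and the order was the same in the library whose peaks go against its label. Chromosome 11 was the densest, with 49.96 and 45.6 per Mb.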

How the data were processed

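DNase-seq was deposited for 2 libraries of 1 group. Per the file headers and the lists of files deposited with each library, reads were placed on mm10 and each list was made from that library's own alignments; no source used here names the aligner, the callers or the filters. Peak values are the signal column deposited by the authors, a whole multiple of 0.00707 in replicate 1 and 0.00645 in replicate 2, whose scale no source gives, and the depth in cuts is unknown. The deposited p-value column is an FDR per run of bases and lists only runs under 0.05. The score column deposited with the footprints is constant and was not used. Peak summits were not usable, so the middle base stands for the peak.

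Genes and TSS came from GENCODE M21, sequence and RefSeq genes from GRCm38.p6. The longer peak list was used, and a peak was shared when it overlapped a peak of the other library by 1 bp. Some peaks of 1 library overlap each other (5.04% and 3.15% of upstream peaks). Intervals on shares are exact (Clopper-Pearson, 95%). The list counts use genes with at least 500 bp of eligible sequence. Work was done in Python 3.11.15 (matplotlib 3.10.9, pysam 0.24.0, scipy 1.17.1, pandas 2.3.3, numpy 2.4.6), with samtools 1.23.1 and blastn 2.17.0, and the rules were tested on simulated data. The upstream peaks, lists and motifs were chosen with earlier results of these data known. Named genes are the 10 strongest pairs, the 5 highest unpartnered peaks per library, the 10 genes with most upstream peaks, the 5 shared peaks with most footprints in replicate 1, up to 3 genes for each list, and 34 genes followed whatever their values; others (Camk2a, Vip, Ctss, Laptm5, Lct, Rfx3, Hbb-bs and the genes in dense runs) were chosen after their values were seen. No sequence of chromosome 18 is printed, and some genes and sequences that the rule names are not reported here.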

Additional observations from a re-analysis of the deposited data

How the results depend on the processing

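Values under other settings came to 57, for 6 results. Of these, 46 stayed within the spread between the libraries or, for counts, within 1.5 times, and 11 moved. No check of direction was made. For shares, medians and ratios, leaving out 1 of 2 libraries cannot pass that spread, so those values count among the 46 by construction. The authors' shorter list gave 1699 upstream peaks in place of 3261, 881 genes with a pair in place of 1591, a median value of 1.02, 80.8% with a footprint and a near to far density ratio of 2.02 in place of 1.75. Without dense runs the median value was 0.707 and 76.1% held a footprint. A reciprocal overlap of 50% left 44.9% shared in place of 64.2%. The density ratio was 1.86 outside bodies of protein-coding genes only, 1.63 for 1 to 3 kb over 8 to 10 kb, and 1.70 with overlapping peaks merged, an alternative chosen after seeing the data. Leaving out replicate 1 or 2 gave 3048 to 3474 peaks, 59.1% to 69.4% shared, medians of 0.650 to 0.696, ratios of 1.72 to 1.78, 72.0% to 75.2% with a footprint and 2141 to 2260 genes with an upstream peak of the remaining library. The gene counts without 1 library need no pair, so they are another quantity than the 1591, although they count among the 46. No paired analysis was possible because there is a single group of 2 libraries. Depth is unknown, so a missing peak or footprint does not show closed chromatin.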
